A study of Homo sapiens with 27 samples.

Results

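The genes described here are 10 genes of the prognostic expression class test for uveal melanoma (UM), the most common cancer of the adult eye. They were taken by gene symbol from the count table, which lists 61533 genes, and all 10 were found. Of the 10, 3 are genes whose expression is high in class 2 tumors (*HTR2B*, *ECM1* and *RAB31*) and 7 are genes whose expression is high in class 1 tumors (*FXR1*, *LTA4H*, *EIF1B*, *LMCD1*, *MTUS1*, *ROBO1* and *SATB1*). The rule that picks them is membership of the class test and uses no measured value.

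UM arises from melanocytes of the uveal tract, and most tumors carry an activating mutation of a Gαq family protein. The class test reads a small panel of mRNAs in a tumor biopsy and assigns it to class 1, with low metastatic risk, or class 2, with high metastatic risk. Class 2 tumors usually have lost a copy of chromosome 3 and the function of the deubiquitinase BAP1, and they have lost much of the melanocytic expression program. The test needs a trained classifier and its own assay, so no class is assigned here, and the class of the cell line is not given in the labels.

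The cells were 92.1 cells, an established *GNAQ* mutant UM line grown in RPMI medium with serum, so that all groups are a single line. They received 100 nM VS-4718, an inhibitor of focal adhesion kinase (FAKi), or the solvent DMSO, and treatments and media were renewed every 72 h for up to 21 days. RNA was sequenced in 27 libraries, with 3 replicates for each of 9 groups, which are DMSO at day 0 and either treatment at day 3, 7, 14 or 21. The methods mention both plating in triplicate and repeats of the complete experiment, and the labels do not say which of these a replicate number counts, so a p-value covers only the spread between these libraries.

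The counts of each gene come from the exons of a single transcript. *RAB31* (ENSG00000168461.13) occupies 9708301 to 9862551 of chromosome 18 in hg38, and *LMCD1* (ENSG00000071282.12) occupies 8501823 to 8574668 of chromosome 3, both on the plus strand. These are the genes called differentially expressed between FAKi and DMSO at day 21, and the sequence just before their RefSeq start sites (GRCh38.p14), chr18:9708051-9708300 and chr3:8501573-8501822 on the plus strand, is printed to show their promoters. For both, the RefSeq start is the first base of the counted transcript. Capitals mark a match to the E-box CACGTG or CATGTG bound by MITF, the melanocyte master regulator.
RAB31: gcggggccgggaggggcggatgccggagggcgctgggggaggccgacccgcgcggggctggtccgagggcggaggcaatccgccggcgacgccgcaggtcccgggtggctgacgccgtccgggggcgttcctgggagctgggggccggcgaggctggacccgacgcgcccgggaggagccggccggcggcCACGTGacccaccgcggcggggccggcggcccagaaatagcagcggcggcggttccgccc
LMCD1: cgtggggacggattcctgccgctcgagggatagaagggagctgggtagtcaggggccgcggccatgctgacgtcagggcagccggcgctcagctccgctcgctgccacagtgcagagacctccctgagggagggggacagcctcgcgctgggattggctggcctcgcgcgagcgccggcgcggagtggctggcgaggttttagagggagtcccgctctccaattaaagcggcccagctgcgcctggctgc
The *RAB31* window is 82% G and C and holds 1 E-box, and the *LMCD1* window is 69.6% G and C and holds none. Of the 10 genes, 8 have an entry in the promoter table, and 2 of these 8 (*RAB31* and *EIF1B*) hold the E-box, which occurs on either strand in 15.2% of all 35116 promoter windows. The TEAD motif GGAATG was found in the *SATB1* window and in 11.9% of all windows, and the AP-1 motif TGACTCA in the *ECM1* window and in 4.2% of all windows. These are matches of letters and do not show binding.

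Total counts ran from 12161994 to 43651551 per library. Melanocyte markers (*MITF*, *SOX10*, *PMEL*, *MLANA*, *TYR*, *TYRP1* and *DCT*) summed to 9365 to 15292 CPM (counts relative to library size, scaled by the trimmed mean of M values over all libraries), and 8 markers of leukocytes, endothelium, epithelium and fibroblasts to 1.68 to 8.83 CPM, most of it from *LUM*, with *KRT5* at 0 counts in every library. Libraries were compared by the root mean square of their differences in log2 CPM across well expressed genes, and 9 of the 27 libraries were nearest to a library of another group. The distance of FAKi day 7 replicate 1 was 0.215 to FAKi day 14 replicate 1 and 0.707 to the nearest replicate of its own group. DMSO day 21 replicate 3 was 0.324 from DMSO day 3 replicate 3 and 0.720 from its own group, and DMSO day 3 replicate 1 was 0.266 from DMSO day 0 replicate 3 and 0.577 from its own group. The sample label in the count table carries an additional digit in the day of DMSO day 21 replicate 3, and that library was placed by its title, which gives day 21. Results that rest on these 3 libraries are given with and without them.

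The level per transcript length, in CPM per kb of exon, spanned a wide range over the 10 genes. The median of 27 libraries was 53.2 for *EIF1B*, 27 for *FXR1*, 20.4 for *MTUS1*, 18.7 for *HTR2B* and 18.1 for *LTA4H*. It was 5.80 for *RAB31*, 2.28 for *SATB1*, 1.82 for *ROBO1*, 1.06 for *ECM1* and 0.816 for *LMCD1*. Among 16981 well expressed genes, *EIF1B* stood at the 93.1 percentile of this level and *LMCD1* at the 10.0 percentile. *EIF1B* was above *FXR1*, *LTA4H* above *RAB31*, and *RAB31* above *SATB1* in all 27 libraries. Neighbors with close levels changed places, since *MTUS1* was above *HTR2B* in 18, *HTR2B* above *LTA4H* in 16 and *SATB1* above *ROBO1* in 15 of 27 libraries. The class 2 genes and class 1 genes were interspersed in this order, and the 2 lowest were 1 of each class, *ECM1* with 14 to 306 counts per library and *LMCD1* with 70 to 438.

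**Figure D1:**
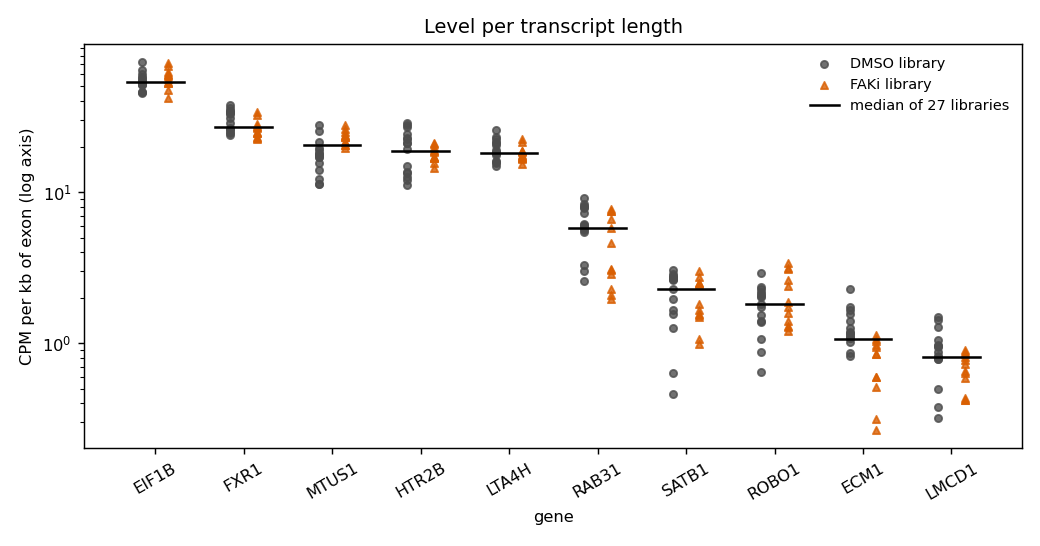
Level per transcript length of the 10 class signature genes, in CPM per kb of exon on a log axis, with a point for each of 27 libraries (circles DMSO, triangles FAKi) and a bar at the median. The medians run from 53.2 for *EIF1B* down to 0.816 for *LMCD1*, and the points of neighboring genes overlap except between *EIF1B* and *FXR1* and between *LTA4H* and *RAB31*.

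The main comparison asks how FAK inhibition changed these genes at each day. A gene is said to have passed where the quasi-likelihood test of edgeR gave a p of 0.05 or less after Benjamini-Hochberg adjustment over all genes tested, and one that passed and also differed by more than 1 on the log2 scale is said to be called. At day 3, 0 of the 10 genes passed, against 0% of all 22846 genes tested, although 5442 of all genes had an unadjusted p under 0.05. That count rests on DMSO day 3 replicate 1, without which 4 of the 10 and 7109 of 21745 genes passed, and 1 of the 10 and 2765 genes were called. DESeq2 called 745 genes at day 3 and again 0 of the 10. At day 7, 0 of the 10 passed, against 0.0269% of all genes. Without FAKi day 7 replicate 1, 1 of the 10 and 645 of 21797 genes passed. At day 14, 2 passed, against 12.4% of all genes, and 0 were called, against 1.66%. They were *HTR2B*, which was higher in FAKi as were 6.35% of all genes, and *FXR1*, which was lower as were 6.1%. At day 21, 3 passed, against 11.6%, with *MTUS1* higher (5.27% of all genes) and *RAB31* and *LMCD1* lower (6.32%). Both of the lower genes were called, against 5.28% of all genes in either direction and 2.71% in this one. DESeq2 called 0 of the 10 and 104 of all 22299 genes at day 7, 0 and 395 of 23443 at day 14, and 3 and 1833 of 23212 at day 21, where *ECM1* joined the pair above.

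The counts of day 21 moved with the fit. With the replicate number as a block, 6 of the 10 and 6930 of 23212 genes passed. Without DMSO day 21 replicate 3, 6 of the 10 and 11052 of 22774 genes passed. In the other 5 leave-one-out fits 1 of the 10, *RAB31*, and 52 to 490 of all genes passed.

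At day 21 the melanocyte marker sum was 11732 to 13976 CPM in DMSO and 14947 to 15292 CPM in FAKi, and the sum of the 8 markers of other cells was 3.20 to 6.20 CPM and 1.68 to 2.77 CPM. Mitochondrial genes took 5.49%, 5.49% and 9.75% of the counts in DMSO and 10.7%, 10.7% and 11.2% in FAKi. At day 14 the melanocyte marker sum was 9365 to 10110 CPM in DMSO and 12225 to 12722 CPM in FAKi, the sum for other cells 4.38 to 6.34 CPM and 4.32 to 8.37 CPM, and the mitochondrial share 22.0% to 27% and 20.7% to 22.1%. Of the 7 melanocyte markers, 2 passed higher and 0 lower on each of these days. Their median log2 fold change was 0.07 at day 14 and 0.30 at day 21, and *MITF*, *SOX10* and *MLANA* overlapped between treatments on both days. The sums thus do not show a rise shared by all markers. The part of these sums and shares in the values of the 10 genes was not tested.

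The median log2 fold change of the 10 genes was 0.16, -0.16, -0.13 and -0.06 at days 3, 7, 14 and 21, beside -0.02, 0.01, -0.01 and 0.01 for all genes tested. By the CPM values, the 3 FAKi libraries and the 3 DMSO libraries did not overlap for 6 of the 10 genes at day 3, against 31% of all genes. The count was 2 at day 7 against 16.8%, 4 at day 14 against 29%, and 5 at day 21 against 35.3%. These are counts over 10 genes and were not tested against the other genes.

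**Figure D2:**
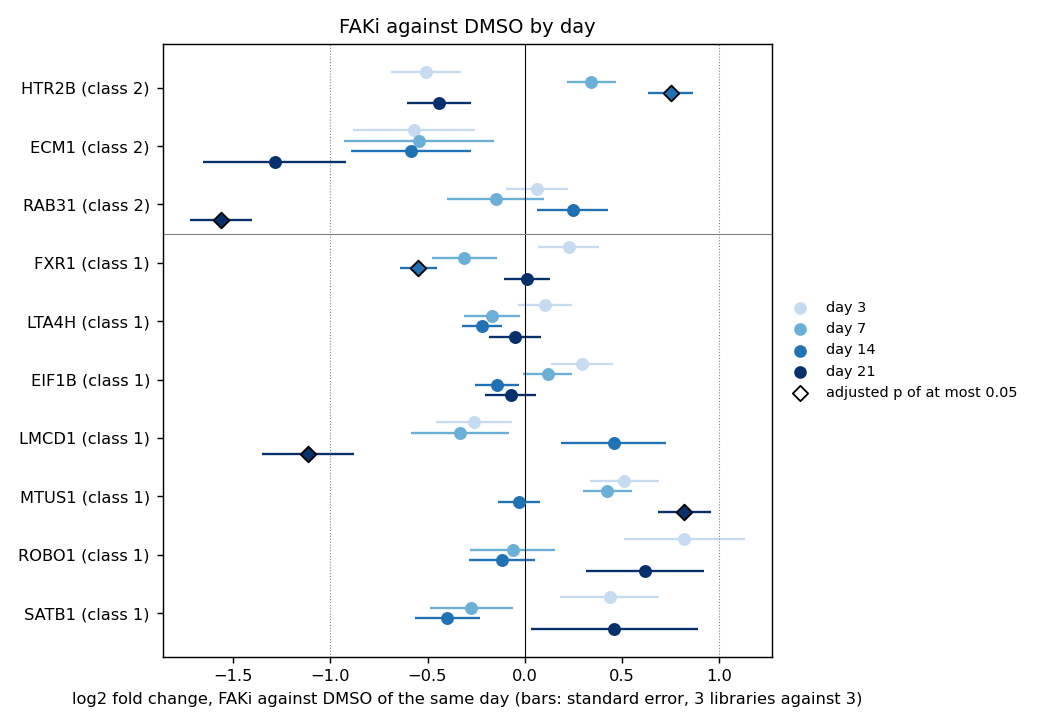
Log2 fold change of FAKi against DMSO of the same day for each gene at days 3, 7, 14 and 21 (darker blue for later days), with bars for the standard error over 3 libraries against 3 and dotted lines at 1 and -1. Diamonds mark the 5 values that passed, and at day 21 *RAB31* at -1.56 and *LMCD1* at -1.12 lie beyond -1 while *MTUS1* lies at 0.82.

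*HTR2B* (ENSG00000135914.6, minus strand of chromosome 2 from 231108230 to 231125042) encodes a serotonin receptor that couples to Gq, the G protein family mutated in UM. Its CPM in DMSO was 49.3, 52.7 and 48.2 on day 0, 46.0, 61.6 and 58.3 on day 3, 29.2, 29.1 and 32.2 on day 7, 27, 24.1 and 26.0 on day 14, and 45.3, 41.9 and 60.0 on day 21. The control level therefore dipped at days 7 and 14, where all 6 libraries lay below every other DMSO library. In FAKi the CPM of *HTR2B* was 40.4, 43.2 and 31.3 on day 3, 41.1, 36.7 and 36.6 on day 7, 45.5, 39.8 and 44.8 on day 14, and 36.5, 36.7 and 33.9 on day 21. FAKi lay below DMSO in every library at days 3 and 21 and above DMSO in every library at days 7 and 14.

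The log2 fold change of *HTR2B* was -0.51 (standard error 0.18, edgeR adjusted p = 0.141) at day 3, 0.34 (0.13, adjusted p = 0.498) at day 7, 0.75 (0.11, adjusted p = 0.00014) at day 14 and -0.44 (0.16, adjusted p = 0.106) at day 21. Without DMSO day 3 replicate 1 the value at day 3 was -0.62 (adjusted p = 0.00917). With the replicate number as a block, chosen from the correlations of the day 21 libraries, the value at day 21 was -0.42 (adjusted p = 0.0444). Without DMSO day 21 replicate 3, the library at 60.0 CPM, it was -0.25 (adjusted p = 0.057). The FAKi effect itself differed between days in a fit of 24 libraries, with 1.27 on the log2 scale between the days farthest apart (adjusted p = 0.000803), and it passed in all 24 fits that left out a library. *HTR2B* differed across days within DMSO (1.08 on the log2 scale between the days farthest apart, adjusted p = 5.17e-05), and did not pass within FAKi (0.27, adjusted p = 0.322).

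*HTR2B* lies within *PSMD1*, a proteasome subunit gene on the other strand. The library kit marks strand, but in these counts 276 genes whose exons lie at least 90% inside exons of an opposite gene had a median of 1.098 times that gene's count density, so the counts do not separate strands. Of the counted *HTR2B* bases, 25.8% overlap exons annotated to *PSMD1*, though 0 lie in the *PSMD1* transcript that was counted. *PSMD1* showed 0.23 (adjusted p = 0.165) at day 14 and -0.50 (adjusted p = 0.0499) at day 21, so the day 14 difference of *HTR2B* was the larger, and the day 21 values of both genes were below 0. The day 21 value of *PSMD1* lies just under the threshold, and fits that left out a library are not given for it. How much of the *HTR2B* count stems from the other strand was not tested.

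*RAB31* encodes a small GTPase of vesicle trafficking and showed the largest daily difference of the 10 genes. In DMSO its CPM was 35.8, 30.8 and 32.4 on day 0, 31.8, 31.0 and 23.8 on day 3, 24.2, 21.1 and 21.8 on day 7, 11.7, 12.9 and 10.1 on day 14, and 23.4, 22.7 and 28.2 on day 21. In FAKi its CPM was 29.4, 30.3 and 29.5 on day 3, 11.9, 22.5 and 26.0 on day 7, 12.1, 11.2 and 18 on day 14, and 7.70, 8.93 and 8.16 on day 21. Both treatments were lower on day 14 than on day 3, after which the DMSO libraries stood higher again while the 3 FAKi libraries of day 21 were the lowest of all 27.

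At day 21 *RAB31* was lower in FAKi by a log2 fold change of -1.56 (standard error 0.16, edgeR adjusted p = 0.00379), a level 0.338 times that of DMSO, and the groups did not overlap. It was called in all 6 fits that left out a library, with values from -1.62 to -1.44. At days 3, 7 and 14 the values were 0.07, -0.15 and 0.25, with adjusted p of 0.824, 0.891 and 0.458. At day 7 the value rested on FAKi day 7 replicate 1, which had the lowest level, and it was 0.12 (adjusted p = 0.726) without it. The effect differed between days by up to 1.82 on the log2 scale (adjusted p = 0.00137), the widest span of the 10 genes, and passed in each of the 24 leave-one-out fits. In bulk RNA, fewer cells that express a gene and less RNA per cell cannot be told apart, here and below.

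*ECM1* (ENSG00000143369.15, plus strand of chromosome 1 from 150508062 to 150513553) encodes a secreted glycoprotein of the extracellular matrix and was near 3 CPM. At day 21 it was at 3.29, 5.34 and 4.77 CPM in DMSO and 0.968, 2.60 and 1.84 CPM in FAKi. The groups did not overlap, and the FAKi values rest on 22, 48 and 64 counts. The log2 fold change was -1.29 (standard error 0.37, edgeR adjusted p = 0.057), and with the replicate block it was -1.35 (adjusted p = 0.00314), past both thresholds. Without DMSO day 21 replicate 3 it was -1.21 (adjusted p = 0.00438).

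On the earlier days *ECM1* showed -0.57, -0.55 and -0.58 at days 3, 7 and 14, with adjusted p of 0.291, 0.721 and 0.259. All 4 daily values were below 0, and the mean FAKi effect over the 4 days was -0.75 (standard error 0.19, adjusted p = 0.00818), passed in all 24 fits that left out a library. A difference of the effect between days was not detected (adjusted p = 0.625). The day 3 value rested on DMSO day 3 replicate 1, whose 6.93 CPM was the highest *ECM1* level of all, and was -0.15 without it. The day 7 value was -0.21 without FAKi day 7 replicate 3 and -1.03 without FAKi day 7 replicate 2, and the day 14 value was -0.32 without FAKi day 14 replicate 1, none of which passed. The counted *ECM1* transcript is not the canonical one, and 59.0% of its bases lie in canonical exons.

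**Figure D3:**
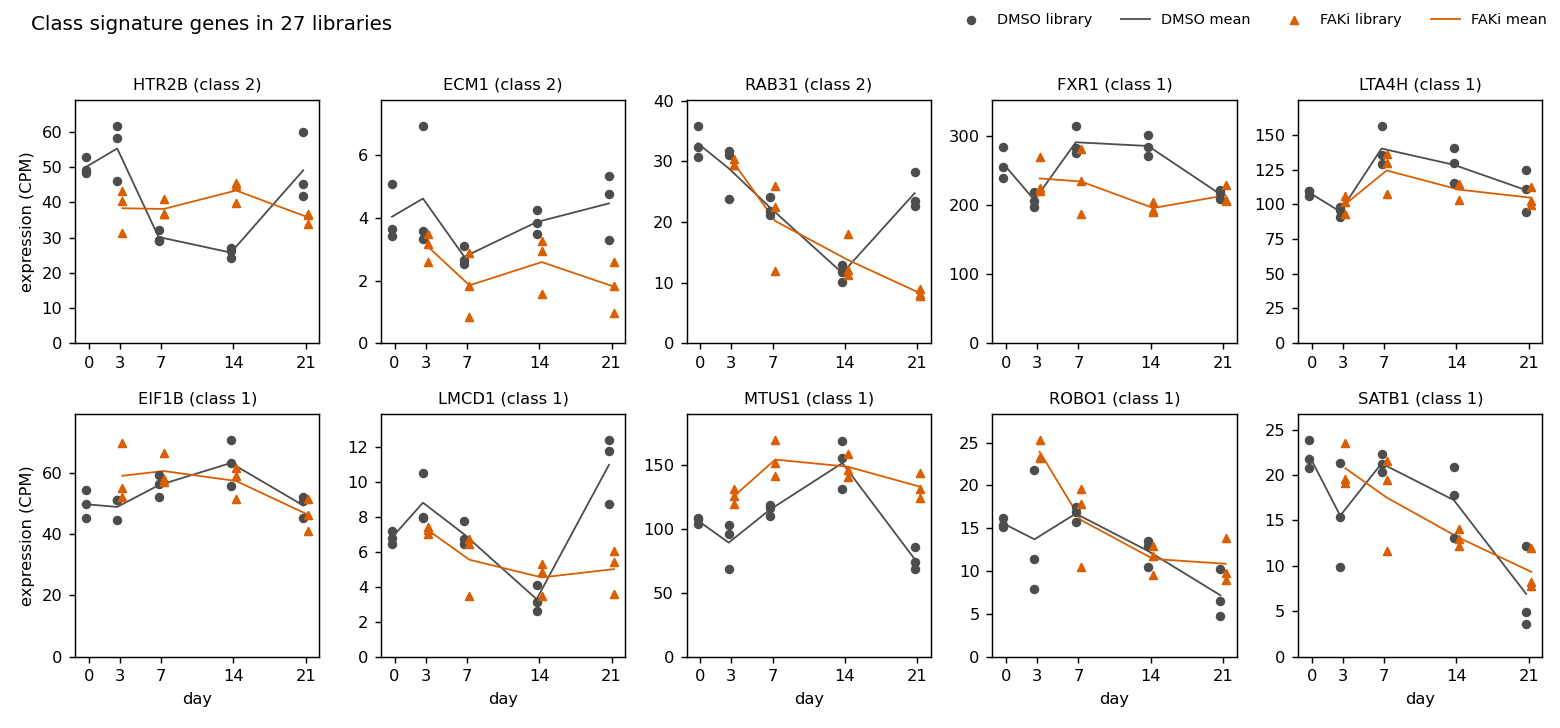
Expression in CPM of the 10 class signature genes by day, with a panel per gene, a point per library and lines through the group means (grey circles DMSO, orange triangles FAKi). In FAKi at day 21 *RAB31* lay between 7.70 and 8.93 CPM, below all 15 DMSO libraries, and *MTUS1* at day 21 lay between 124 and 143 CPM, above the DMSO libraries of that day.

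*LMCD1* encodes a LIM domain protein that acts as a transcriptional cofactor. Its CPM in DMSO was 6.47, 6.82 and 7.21 on day 0, 2.65, 3.12 and 4.13 on day 14, and 12.4, 11.8 and 8.75 on day 21. In FAKi it was 3.48, 5.29 and 4.87 on day 14 and 6.07, 5.41 and 3.59 on day 21. The DMSO libraries of day 21 were all above those of day 14, and the FAKi libraries of day 21 were all below the DMSO libraries of that day. The log2 fold change at day 21 was -1.12 (standard error 0.24, edgeR adjusted p = 0.0249). This call held only in the fit without DMSO day 21 replicate 3 (-1.25, adjusted p = 2.58e-05) among the 6 fits that left out a library, and the highest adjusted p of the other 5 was 0.109, with values down to -0.91.

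At days 3, 7 and 14 *LMCD1* showed -0.26, -0.33 and 0.46, with adjusted p of 0.427, 0.742 and 0.329. At day 7 FAKi replicate 1 was at 3.48 CPM beside 6.45 and 6.75 CPM for the others, and without it the value was -0.09 (adjusted p = 0.865). The effect differed between days by up to 1.58 on the log2 scale (adjusted p = 0.0256). That call was lost in 7 of 24 leave-one-out fits, where the adjusted p reached 0.0787. *LMCD1* belongs to the class 1 set, and its difference at day 21 had the same sign as those of the class 2 genes *RAB31* and *ECM1*.

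*MTUS1* (ENSG00000129422.15, minus strand of chromosome 8 from 17643802 to 17801094) encodes a microtubule-associated protein. At day 21 it was at 74.4, 68.9 and 85.5 CPM in DMSO and 131, 124 and 143 CPM in FAKi. On day 3 the values were 103, 95.6 and 68.6 CPM against 119, 131 and 126 CPM, and on day 7 they were 119, 110 and 116 CPM against 141, 152 and 169 CPM. FAKi was above DMSO in every library on these 3 days, while at day 14 the groups overlapped at 131, 168 and 155 CPM in DMSO and 141, 146 and 159 CPM in FAKi.

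For *MTUS1* the log2 fold change of day 21 was 0.82 (standard error 0.14, edgeR adjusted p = 0.0128), after 0.51, 0.43 and -0.03 on days 3, 7 and 14. At days 3, 7 and 14 the adjusted p was 0.134, 0.384 and 0.92. Without DMSO day 3 replicate 1 the value at day 3 was 0.63 (adjusted p = 0.00973), and without FAKi day 7 replicate 1 the value at day 7 was 0.49 (adjusted p = 0.0185). At day 21 the adjusted p was 6.08e-07 without DMSO day 21 replicate 3 and up to 0.0791 in the other 5 fits that left out a library, none of which passed. The mean effect over the 4 days was 0.43 (standard error 0.07, adjusted p = 0.000314) and passed in all 24 such fits. The effect differed between days by up to 0.84 on the log2 scale (adjusted p = 0.0439), and this passed in 7 of the 24, with an adjusted p between 0.0114 and 0.111.

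*FXR1* (ENSG00000114416.18, plus strand of chromosome 3 from 180912670 to 180982753) encodes an RNA-binding protein of the fragile X family. At day 14 it was at 271, 300 and 284 CPM in DMSO and 189, 192 and 205 CPM in FAKi. The groups were well apart, with a log2 fold change of -0.55 (standard error 0.09, edgeR adjusted p = 0.000461), and the value passed in all 6 fits that left out a library. At days 3, 7 and 21 the values were 0.23, -0.31 and 0.01, with adjusted p of 0.388, 0.639 and 0.95. The day 7 value was -0.17 without FAKi day 7 replicate 1. The effect differed between days by up to 0.77 on the log2 scale (adjusted p = 0.0317), passing in 15 of 24 leave-one-out fits, with an adjusted p of at most 0.0889.

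*LTA4H* (ENSG00000111144.10, minus strand of chromosome 12 from 96000833 to 96035528), which encodes the enzyme that turns leukotriene A4 into the chemoattractant leukotriene B4, had daily log2 fold changes of 0.10, -0.17, -0.22 and -0.05, with adjusted p of 0.675, 0.771, 0.191 and 0.822. *EIF1B* (ENSG00000114784.4, plus strand of chromosome 3 from 40309707 to 40312424), a translation initiation factor closely related to *EIF1*, had 0.29, 0.12, -0.14 and -0.07, with adjusted p of 0.283, 0.817, 0.502 and 0.734. Across all 27 libraries *LTA4H* ran from 90.5 to 156 CPM and *EIF1B* from 41.0 to 70.7 CPM, the narrowest ranges of the 10 genes together with *FXR1* at 186 to 314 CPM. *EIF1B* passed in none of the 9 comparisons as fitted, but did in 3 of them after a correction for transcript length. Across days it also passed in some fits that left out a library. The counted *LTA4H* transcript has 32.8% of its bases in canonical exons and 15.1% inside exons of opposite-strand genes, so its count is a mixed measure. Of the 50-base words of *EIF1B*, 8.53% also occur in another annotated gene.

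*ROBO1* (ENSG00000169855.21, minus strand of chromosome 3 from 78597246 to 79019459) encodes a receptor for Slit ligands. At day 3 it was at 21.8, 11.4 and 7.90 CPM in DMSO and 23.3, 25.3 and 23.2 CPM in FAKi. The FAKi libraries were the higher ones but DMSO replicate 1 stood close to them, and the log2 fold change was 0.82 (standard error 0.31, edgeR adjusted p = 0.158), or 1.33 (adjusted p = 0.000254) without that replicate, past both thresholds. At day 21 it was at 6.52, 4.77 and 10.2 CPM in DMSO and 9.72, 8.93 and 13.9 CPM in FAKi, so the groups overlapped. The value was 0.62 (standard error 0.30, adjusted p = 0.19), 0.65 (adjusted p = 0.014) with the replicate block, and 0.97 (adjusted p = 0.000617) without DMSO day 21 replicate 3. Days 7 and 14 gave -0.06 and -0.12, with adjusted p of 0.952 and 0.758, and the day 7 value was 0.17 without FAKi day 7 replicate 1.

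*SATB1* (ENSG00000182568.17, minus strand of chromosome 3 from 18345377 to 18425339) encodes a chromatin organizer. At day 21 it was at 3.63, 4.94 and 12.2 CPM in DMSO and 7.74, 8.28 and 12 CPM in FAKi. DMSO replicate 3 was at the level of the highest FAKi library and the other two DMSO libraries were below all FAKi libraries. The log2 fold change was 0.46 (standard error 0.43, edgeR adjusted p = 0.48), or 1.20 (adjusted p = 0.000171) without that replicate, past both thresholds. Values at days 3, 7 and 14 were 0.44, -0.27 and -0.40, with adjusted p of 0.314, 0.749 and 0.132. At day 3 the value was 0.73 (adjusted p = 0.0153) without DMSO day 3 replicate 1, at day 7 it was -0.04 without FAKi day 7 replicate 1, and at day 14 it was -0.57 (adjusted p = 0.0249) without DMSO day 14 replicate 3.

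Over all 4 days, 3 of the 10 genes passed for the mean FAKi effect, against 15.7% of all 27897 genes tested, and 0 were called, against 1.89%. *ECM1* and *RAB31* were lower, against 8.7% of all genes, and *MTUS1* was higher, against 6.96%. *RAB31* had a mean effect of -0.35 (adjusted p = 0.0236). For *HTR2B* it was 0.03 (adjusted p = 0.835), since its daily differences had both signs. The other 6 class 1 genes did not pass, with values from -0.32 for *LMCD1* to 0.31 for *ROBO1*. *LMCD1* passed without DMSO day 21 replicate 3 (adjusted p = 0.0393), *FXR1* without FAKi day 7 replicate 3 (adjusted p = 0.0396) and *ROBO1* without DMSO day 3 replicate 1 or without DMSO day 21 replicate 3, with a lowest adjusted p of 0.0136. For the difference of the effect between days, 5 of the 10 genes passed, against 10.3%, and 3 were called (*HTR2B*, *RAB31* and *LMCD1*), against 7.68%. *ROBO1* (1.44, adjusted p = 0.0165) was also called without DMSO day 3 replicate 1, and *SATB1* (1.58, adjusted p = 0.00983) without DMSO day 21 replicate 3. No direction was shared by a class: at day 21 the values of all 3 class 2 genes were below 0, but at day 14 *HTR2B* was higher in FAKi, and the class 1 genes held both signs at each day.

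Culture time itself was examined in the DMSO libraries, where 8 of the 10 genes differed across the 5 days by the adjusted p, against 49.9% of all 26193 genes, and 5 were called, against 32.9%. The called genes were *LMCD1*, *SATB1*, *RAB31*, *ROBO1* and *HTR2B*, with spans between the days farthest apart of 1.75, 1.68, 1.51, 1.19 and 1.08 on the log2 scale. *ROBO1* no longer passed without DMSO day 21 replicate 1 or without replicate 2 of that group, when its adjusted p was 0.107 and 0.118. *HTR2B* was no longer called without DMSO day 3 replicate 2 (span 0.97), and *MTUS1*, with a span of 0.98, was called in 7 of 15 leave-one-out fits. *ECM1* (0.74, adjusted p = 0.194) and *EIF1B* (0.40, adjusted p = 0.06) did not pass. *EIF1B* passed in 5 of 15 leave-one-out fits, with a lowest adjusted p of 0.0333, and by DESeq2 9 of the 10 genes passed. In FAKi across its 4 days, 3 genes passed and were called, against 45.1% and 24.2% of all 24969 genes. They were *RAB31* (1.85, adjusted p = 5.13e-05), *SATB1* (1.14, adjusted p = 0.0017) and *ROBO1* (1.13, adjusted p = 0.000937). In FAKi all 3 had their highest group mean at day 3 and their lowest at day 21. Leaving out FAKi day 7 replicate 1 brought *FXR1*, *LTA4H*, *EIF1B*, *LMCD1* and *MTUS1* past the adjusted p as well, with adjusted p from 0.0127 to 0.0243 and spans from 0.35 to 0.68, and the calls stayed at 3.

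Between DMSO at day 21 and day 0, 5 of the 10 genes passed, against 44.9% of all 22259 genes, and 2 were called, against 23.3%. Of the 5, 1 was higher at day 21 and 4 were lower, against 24.1% and 20.7% of all genes. Without DMSO day 21 replicate 3, 7 of the 10 and 15124 of 21698 genes passed. In each of the other leave-one-out fits 2 of the 10 passed, with 5307 to 6341 of all genes. *SATB1* fell from 23.8, 20.8 and 21.8 CPM to the 3.63, 4.94 and 12.2 CPM of day 21, with a log2 fold change of -1.70 (standard error 0.40, edgeR adjusted p = 0.0105). Without DMSO day 21 replicate 3 its value was -2.43 (adjusted p = 1.22e-20). *ROBO1* fell from 15.3, 15.1 and 16.2 CPM to 6.52, 4.77 and 10.2 CPM, with -1.12 (standard error 0.26, adjusted p = 0.00968), and was -0.91 without DMSO day 21 replicate 2. Its leave-one-out values reached -1.44. Of all genes, 10% were called in this direction. *MTUS1* (-0.49, adjusted p = 0.0145) and *RAB31* (-0.42, adjusted p = 0.0389) fell and *LMCD1* rose (0.68, adjusted p = 0.0183), and each of these 3 passed in 1 of 6 fits that left out a library, the one without DMSO day 21 replicate 3. The groups did not overlap for 6 of the 10 genes, against 58.1% of all genes. The mitochondrial share was 17% to 18.8% at day 0 and 5.49% to 9.75% at day 21, and the sum for other cells 4.22 to 5.48 CPM and 3.20 to 6.20 CPM. The melanocyte marker sum was 10029 to 10400 CPM and 11732 to 13976 CPM. Of these 7 markers 3 passed higher and 2 lower, with a median log2 fold change of -0.34, so the sum does not show a shared rise. How far these measures enter the values of the 10 genes was not tested. *HTR2B* was near its level of day 0 (-0.04, adjusted p = 0.864), although without DMSO day 21 replicate 3 it was -0.20 (adjusted p = 0.0286). *FXR1* (-0.28, adjusted p = 0.102) passed in 1 of 6 leave-one-out fits, the one without that library (adjusted p = 0.00228).

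The change over the DMSO culture followed transcript length across all genes. For each library, log2 expression relative to each gene's mean over the 27 libraries was fitted on log2 length. The slope was -0.304 and -0.293 in DMSO day 21 replicates 1 and 2 and -0.109 in replicate 3. It was -0.175 in DMSO day 3 replicate 3, and between -0.179 and -0.0775 in FAKi at day 21. It was between -0.0362 and 0.133 in the other 20 libraries. Across 16981 genes, Spearman's rho of length with the log2 fold change from day 0 to day 21 was -0.452, and the median change was 0.59 for transcripts under 2000 bases and -0.64 for those over 6000 bases. Genes are not independent replicates, and no p is given. Of the 10 genes, 6 have counted transcripts over 6000 bases, among them *ROBO1* (7426) and *SATB1* (7801).

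After a correction of each library for length, *SATB1* from day 0 to day 21 was -1.18 (adjusted p = 0.0164), *ROBO1* -0.58 (adjusted p = 0.0326) and *MTUS1* -0.03 (adjusted p = 0.843). *LMCD1* (8273 bases) went against the trend, at 1.34 (adjusted p = 0.00483) after correction. *EIF1B*, the shortest at 980 bases, was -0.68 (adjusted p = 0.00435) after correction and -0.02 before it. Across days it also passed after correction, with spans of 1.00 in DMSO (adjusted p = 0.000103, under the threshold of 1 before rounding) and 0.67 in FAKi (adjusted p = 0.00192), and its FAKi value at day 21 went from -0.07 to 0.20 (adjusted p = 0.238). FAKi against DMSO also followed length at days 3 and 21, with rho of 0.346 and 0.260, and not at days 7 and 14 (0.0300 and -0.0340). At day 21 the correction left *RAB31* at -1.63 (adjusted p = 0.00054), *LMCD1* at -1.37 (adjusted p = 0.0225) and *MTUS1* at 0.66 (adjusted p = 0.00378), and brought *ECM1* to -1.29 (adjusted p = 0.0446). Across the DMSO days 3 genes were still called after correction, against 7103 of 26193 genes, *LMCD1* (2.44), *RAB31* (1.51) and *SATB1* (1.17), while *HTR2B* stood at 0.98, under the threshold of 1, and *ROBO1* at 0.68 (adjusted p = 0.0561). Across the FAKi days *RAB31* alone was called after correction (1.74), against 5300 of 24969 genes, while the number that passed went from 3 to 7 of the 10, against 10613 of all genes. *ROBO1* (0.98) and *SATB1* (0.67) still passed, and *EIF1B*, *FXR1*, *LTA4H* and *MTUS1* passed after correction but not before it. The mean FAKi effect followed length with a rho of 0.268. For it 5 of the 10 passed after correction, against 4482 of 27897 genes, and 3 passed before it. By DESeq2 without the correction, 4 of the 10 and 5424 of all genes passed. For *FXR1* the difference of the effect between days no longer passed after the length correction (0.41, adjusted p = 0.545). The origin of the length trend was not tested.

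**Figure D4:**
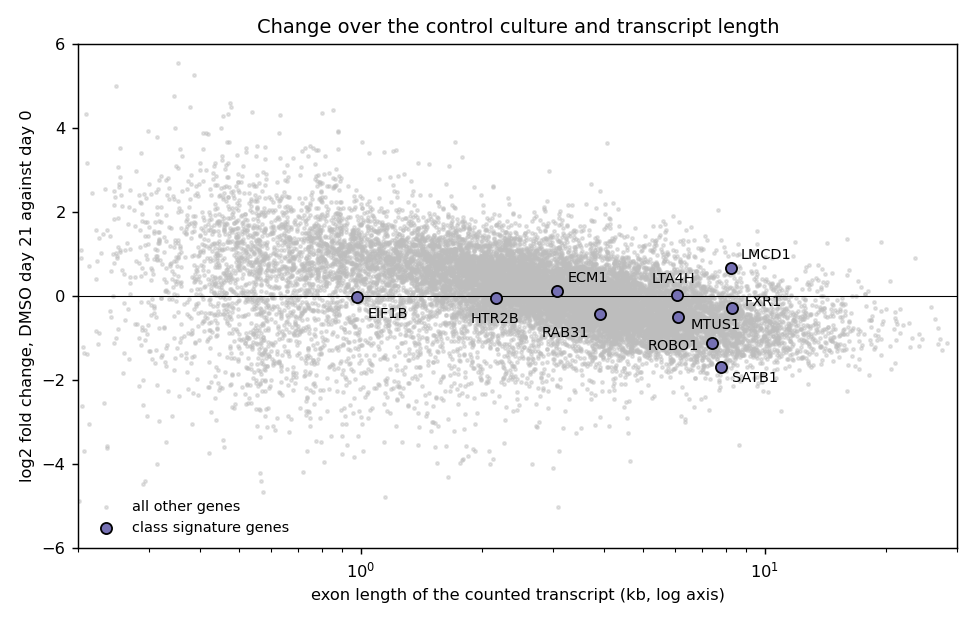
Log2 fold change between DMSO day 21 and day 0 against exon length of the counted transcript in kb on a log axis, with a grey point per gene and the 10 class signature genes in purple. Long transcripts lie lower (rho -0.452), and *SATB1* at -1.70 and *ROBO1* at -1.12 lie on the long side together with *LMCD1* at 0.68, which lies above the cloud.

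Pairs of the 10 genes were compared by Pearson's r of log2 CPM over the 27 libraries, which share day, treatment and the length trend, as a description with no test. *ROBO1* and *SATB1* had the highest r of the 45 pairs at 0.86, followed by *RAB31* and *LMCD1* at 0.68 and *FXR1* and *LTA4H* at 0.67. The lowest r was -0.77 for *LMCD1* and *MTUS1*. Both pairs at the top and the bottom of this order join class 1 genes. Among 16981 genes, those most like a member were *PHF8* (0.96) and *HMCN1* (0.96) for *SATB1*, *NCOR1* (0.95) and *JMJD1C* (0.94) for *ROBO1*, *MYO5A* (0.96) and *ABCB5* (0.95) for *MTUS1*, and *STXBP6* (0.94) and *STOM* (0.93) for *RAB31*. For *HTR2B* they were *PI4KB* (0.89) and *DUSP14* (0.84), for *FXR1* *EIF4B* (0.91) and *NUB1* (0.90), and for *LMCD1* ENSG00000285839 (0.95) and *RPN2* (0.94). For *LTA4H* they were *PMPCB* (0.83) and *AMACR* (0.82), for *EIF1B* *SLC39A1* (0.80) and ENSG00000253683 (0.79), and for *ECM1* *EPHB2* (0.76) and *SOD3* (0.73).

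Of the 10 genes, 5 lie on chromosome 3 (*EIF1B*, *FXR1*, *LMCD1*, *ROBO1* and *SATB1*), the chromosome that class 2 tumors tend to lose. All 1234 genes tested on chromosome 3 had a median log2 fold change of 0.01 at day 21, the same as all genes to 2 decimals, and 11.8% of them passed, against 11.6% of all genes. At day 14, 11% passed, against 12.4%.

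The class test also reads *ID2*, an inhibitor of helix-loop-helix transcription factors that is high in class 1, and *CDH1*, the epithelial cadherin that is high in class 2. *ID2* was at 48.8, 58.5 and 43.1 CPM in FAKi and 31.8, 26.7 and 27 CPM in DMSO at day 3. At day 21 it was at 60.4, 58.0 and 55.3 CPM in FAKi and 36.4, 34.8 and 28.4 CPM in DMSO. FAKi was above DMSO in every library of these days, with log2 fold changes of 0.84 at day 3 (adjusted p = 0.0945), 1.26 at day 7 (adjusted p = 0.189), 0.74 at day 14 (adjusted p = 7.43e-05) and 0.83 at day 21 (adjusted p = 0.0106). The mean effect was 0.91 (standard error 0.09, adjusted p = 4.34e-07), larger than that of any of the 10 genes. *CDH1* had only 5 to 54 counts per library and passed on no day for FAKi against DMSO. Both genes were called across the FAKi days, against 24.2% of all genes, and 1 of the 2 across the DMSO days, against 32.9%.

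Of the control genes of the test, *MRPS21*, *RBM23* and *SAP130*, none passed at any of the 4 days. In DMSO from day 0 to day 21, *MRPS21*, a short mitochondrial ribosomal protein gene, rose by 0.84 (adjusted p = 0.0163) and *SAP130* fell by 0.68 (adjusted p = 0.0204), while *RBM23* was at -0.01 (adjusted p = 0.955). Fits that left out a library are not given for these control genes, so how far the shifts rest on a single library is not shown. *RBM23* passed for the mean FAKi effect, at 0.18 (adjusted p = 0.0351). *PRAME*, a separate marker of metastatic risk, had 0 to 17 counts per library, and no difference was detectable at this depth.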

How the data were processed

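The authors trimmed reads with Trim Galore, checked them with FastQC 0.11.8, aligned them to hg38 with STAR 2.5.3a and counted them with HOMER. Per the file header, the deposited counts are raw exon counts of 1 transcript per gene on GENCODE 39, without normalization. The strand setting of the counting is not given in the sources used here. All count columns were matched to samples by label, with 0 left over. The column of DMSO day 21 replicate 3 has an additional digit in its day and was matched through the sample description that repeats it, and the group follows the title.

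Groups followed treatment and day in the labels. Each daily comparison, and DMSO day 21 against day 0, was fitted on its 6 libraries with edgeR 4.0.16 in R 4.3.3, TMM scaling, removal of genes with fewer than 20 counts in total and the quasi-likelihood test (glmQLFit, glmQLFTest) with Benjamini-Hochberg adjustment over all genes. The methods name DESeq2, and version 1.42.0 served as an alternative. The mean FAKi effect and its difference between days came from 24 libraries, and the day effects from the 15 DMSO or 12 FAKi libraries. Log values carry a prior count of 2. Levels per length, likeness and library distances used genes with a mean of at least 1 CPM. The genes named are the 10 class signature genes, the other genes of the class test, host and related genes of lists, and for likeness the 2 genes with the highest r for each. The genes and lists were chosen with earlier results of these data known. The alternatives were other scalings, no count filter, a single fit, DESeq2, the adjusted p alone, the replicate number as a block and each library left out. A lowess fit on transcript length (span 0.5), subtracted within each library, was added after seeing the data.

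Deviations from group means of same-numbered libraries correlated with r of 0.128 to 0.658 at day 21, over 0.1 for 3 of 3 numbers, and the block is given there. At day 3 r was 0.000611 to 0.107, at day 7 -0.144 to -0.0714 and at day 14 -0.0260 to 0.00956. The use of the block at day 21 was thus chosen from the data, since the labels do not say what a replicate number counts. In a simulation where 200 genes had a log2 fold of 2, 191 were recovered at day 3 with 16 false calls among 22411 genes. At day 21, 184 were recovered with 5 false calls among 22739. That fold is larger in size than any daily value of the class signature genes, which reached -1.56 for *RAB31* at day 21. In the measured libraries, 0 genes were called at day 3, and 2765 without DMSO day 3 replicate 1. The recovered numbers hold for simulated counts and do not give the sensitivity to smaller differences in these libraries. Transcript positions were read against GENCODE 44. With 12161994 to 43651551 counts per library, the genes with the fewest counts, *ECM1* and *LMCD1*, are measured least precisely.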

Additional observations from a re-analysis of the deposited data

Results flagged for a closer look

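For 5 of the 10 genes the FAKi effect differed between days by the test of that difference in edgeR (24 libraries), against 10.3% of all genes. The difference between the days with the highest and the lowest effect was 1.82 on the log2 scale for *RAB31*, 1.58 for *LMCD1*, 1.27 for *HTR2B*, 0.84 for *MTUS1* and 0.77 for *FXR1*. *RAB31* and *HTR2B* passed in all 24 leave-one-out fits, *LMCD1* in 17, *FXR1* in 15 and *MTUS1* in 7, and *FXR1* did not pass after the length correction. The groups of *HTR2B* stood apart in opposite directions on different days, with every FAKi library below DMSO at days 3 and 21 and above DMSO at days 7 and 14. For *FXR1* every FAKi library was below DMSO at day 14. At day 3 every FAKi library was above DMSO, but barely, with a lowest FAKi level of 219.8 CPM and a highest DMSO level of 218.5 CPM. That day 3 difference did not pass (0.23, edgeR adjusted p = 0.388), and 31% of all genes did not overlap on that day. Of the 4 days, *FXR1* passed only at day 14, and *RAB31* and *LMCD1* had their lowest values at day 21.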

How the results depend on the processing

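Called differences between 2 groups kept their sign under every alternative run, while the spans between days have no sign that could change. Of 90 gene results, 42 had an unadjusted p under 0.05 and 29 an adjusted p of at most 0.05. Fits that left out a library kept the side of the threshold in 474 cases, with 15 stronger and 60 weaker. Other alternatives kept it in 222, with 19 stronger and 11 weaker. With the adjusted p alone, the members counted were 2 at day 14, 3 for the mean effect, 5 for its difference between days, 8 across DMSO days and 5 from day 0 to day 21. The length correction left 3 across DMSO days (of all genes 7103, against 8606) and 1 across FAKi days (5300, against 6050). Leaving out a library gave 0 to 1 at day 3 (1, and 2765 of all genes, without DMSO day 3 replicate 1), 1 to 4 at day 21 (4, and 4248 of all genes, without DMSO day 21 replicate 3), 2 to 4 for the difference between days, 4 to 6 across DMSO days and 1 to 2 from day 0 to day 21 (1 without DMSO day 21 replicate 2), and left 0 at days 7 and 14 and for the mean effect and 3 across FAKi days. The replicate block at day 21 gave 3 members and 2076 genes against 2 and 1226 (1913 without a count filter, 1833 by DESeq2). At day 3 edgeR called 0 genes of all, DESeq2 745 and edgeR without a count filter 1181, and at day 7 these counts were 6, 104 and 220. For the difference between days the block gave 4 members, no count filter 3659 genes and DESeq2 3414, against 3 and 2143. The block let *LMCD1* (adjusted p = 0.0385) and *ROBO1* (0.0368) pass for the mean effect, where 4 of 12 pairs had r over 0.1. At days 3, 7 and 14, where r of same-numbered libraries was at most 0.107, the block called 0 members.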

Other observations

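Genes related to the 10 were read from lists chosen with earlier results of these data known. Of 9 Slit ligands, Robo receptors and Slit-Robo GTPase-activating proteins, 7 were tested between DMSO day 21 and day 0, and 5 passed, all lower, against 20.7% of all genes that passed lower. *SLIT2* showed -1.38 (edgeR adjusted p = 0.00376), *SRGAP1* -1.22 (adjusted p = 0.00231) and *ROBO2* -1.19 (adjusted p = 0.016), beside -1.12 for *ROBO1*, and the length trend of these libraries applies to them as well. *ROBO2* had a mean FAKi effect of 0.58 (adjusted p = 0.00441), and *ROBO3* was higher in FAKi at day 21 by 0.70 (adjusted p = 0.0422). At day 14 every FAKi library was below DMSO for *ROBO3*, a difference that did not pass. *FMR1*, of the family of *FXR1*, showed -0.97 (adjusted p = 0.00751) from day 0 to day 21. *EIF1*, the relative of *EIF1B*, rose by 1.05 (adjusted p = 0.00363). Fits that left out a library are not given for these related genes, and the number of all genes that passed at day 21 moved with the library left out.

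The leukotriene pathway around *LTA4H* was mostly at the detection limit. *ALOX5*, which makes its substrate leukotriene A4, had 0 to 1 counts per library, *ALOX5AP* 0 to 5 and *LTC4S* 0 to 3, while the leukotriene B4 receptor *LTB4R* had 262 to 1284. Other serotonin receptors of the type of *HTR2B* were also low, with 0 to 4 counts for *HTR2A* and 0 to 5 for *HTR2C*.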
